A study of Mus musculus with 6 samples.

Results

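The genes described here encode enzymes of the tricarboxylic acid (TCA) cycle and of mitochondrial fatty acid oxidation, with the nuclear receptors that act on the second pathway. They were chosen by name from a list of 42 genes, 22 for pyruvate entry and the TCA cycle and 20 for fatty acid oxidation. The deposited table of 23413 genes held 41 of them, and Ppara was not analysed here. The samples are messenger RNA libraries of wild-type (WT) mouse hematopoietic stem cells (HSCs), taken from bone marrow and sorted by F4/80, with 3 libraries from F4/80 negative and 3 from F4/80 positive cells. F4/80 is a surface protein encoded by Adgre1 that is used as a marker of macrophages. The series title concerns membrane transfer between cells (trogocytosis) in relation to c-Kit, and the design compares stem cells with and without F4/80. Both groups carry the same genotype, no treatment is named, and the labels give neither age nor whether each library is from an animal of its own.

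The TCA cycle burns acetyl groups to carbon dioxide inside mitochondria and hands the electrons to the respiratory chain. Pyruvate reaches the cycle through the pyruvate dehydrogenase complex, while long-chain fatty acids enter mitochondria as carnitine esters and are shortened step by step to acetyl-CoA by beta-oxidation. Electrons of the first oxidation in each round pass through electron transfer flavoprotein. In HSCs, quiescence is commonly linked with glycolysis and low mitochondrial activity, and fatty acid oxidation with stem cell maintenance.

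Transcripts for several steps of the TCA cycle were higher in the F4/80 positive libraries, and in fatty acid oxidation those for electron transfer flavoprotein and Hadhb were. All 41 genes had enough reads to be tested. Of the 22 pyruvate and TCA genes, 10 rose and 0 fell in the positive libraries, and the median over all 22 was 1.18-fold. Of the 19 fatty acid oxidation genes, 3 rose and 0 fell, and their median was 1.06-fold. Whether the shares of called genes differed between the pathways was not tested. The called changes were small, from 1.19-fold for Hadhb to 1.62-fold for Me2. A gene was called at a Benjamini-Hochberg adjusted p below 0.05 in edgeR's quasi-likelihood test, adjusted over the 14451 genes tested. That test did not pair libraries by their replicate number, and counts with the number as a block are given below.

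Over the whole table, 1395 genes (9.65%) were higher and 1572 (10.9%) lower, 2967 (20.5%) in either direction, and the median log2 fold change was -0.03. Without a composition factor, which corrects library sizes for a few abundant genes, 942 genes were higher and 1970 lower and that median was -0.10. The median log2 fold change of the TCA genes was 0.24, or 0.17 without the factor, and that of the oxidation genes was 0.09, or 0.01 without it. The calls without the factor were 6 higher and 0 lower for the TCA genes and 1 higher and 1 lower for the oxidation genes. DESeq2 and limma-voom each called the same numbers of members as edgeR, 10 higher and 0 lower in the TCA cycle and 3 higher and 0 lower in fatty acid oxidation. At an unadjusted p below 0.05, 12 TCA genes were higher and 0 lower, and 5 oxidation genes were higher and 2 lower. In the authors' deposited table, 10 TCA genes were higher and 0 lower, and 3 oxidation genes were higher and 0 lower, at their adjusted p below 0.05.

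These counts depended on single libraries. The 10 TCA calls became 5 without negative replicate 3, 6 without positive replicate 1, 4 without positive replicate 2 and 3 without positive replicate 3. The 3 oxidation calls became 1 when any of those 4 libraries was left out. Without negative replicate 1, 7 TCA genes were higher and 0 lower, and 1 oxidation gene was higher and 1 lower. Without negative replicate 2, 10 TCA genes and 2 oxidation genes were higher and 0 lower. With the replicate number as a block, 13 TCA genes were higher and 1 lower, and 4 oxidation genes were higher and 2 lower.

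**Figure D1:**
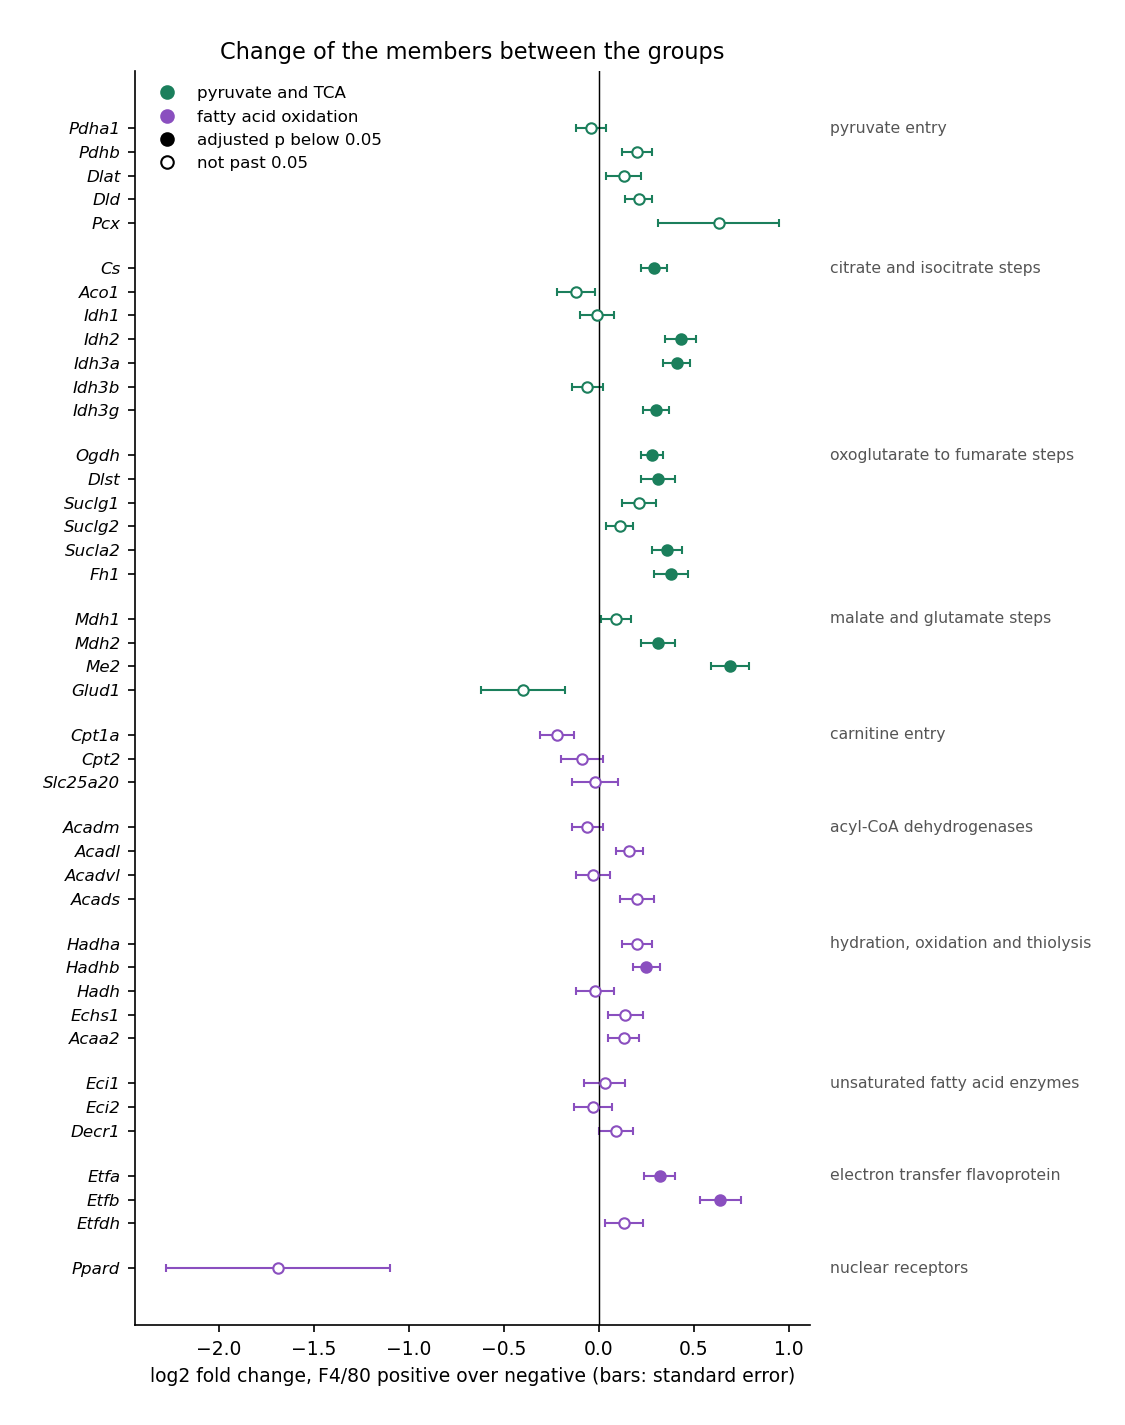
Log2 fold change of each of the 41 genes in F4/80 positive over F4/80 negative libraries (x axis), grouped by role (y axis), with the standard error as bars. Filled points passed an adjusted p of 0.05, which were 10 TCA genes and 3 fatty acid oxidation genes, all to the right of 0.

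Total counts were 18637526 to 21042379 per library and did not part the groups, while other features did. Mitochondrial genes took 0.65% to 0.783% of counts in the negative and 0.525% to 0.619% in the positive libraries. Between 19390 and 20083 genes had a count in the negative libraries, against 18758 to 19292 in the positive ones. All 20 cell cycle markers were higher in the positive libraries, with a summed level of 9005 to 9396 CPM (counts scaled to a common library size) against 4659 to 5689 CPM in the negative ones. Of 18 tested macrophage markers 17 were higher and 0 lower, with sums of 582 to 1195 against 150 to 175 CPM. Marco was at 0 in every negative library and also low in the positive ones, at 0.482, 0.501 and 0.0489 CPM. Of 14 genes listed as stem cell markers 8 were lower and 1, Cd48, was higher. Cd48 and Flt3 in this list mark progenitors, and Cd48 is used to exclude cells from HSC gates. Cd48 measured 86.4, 90.3 and 33.2 CPM in the negative and 162, 169 and 115 CPM in the positive libraries. The 14 genes had sums of 3708 to 3934 against 4978 to 5808 CPM, and none was at 0 in any library. Of 9 tested megakaryocyte markers 6 were higher and 1 lower, with sums of 2147 to 2689 against 1629 to 1965 CPM. Positive replicate 3 had the lowest macrophage sum of its group, 582 CPM, and its summed TCA level of 5235 CPM lay between those of the other positive libraries, 5058 and 5378 CPM. The part that RNA quality, cell cycle, macrophage or megakaryocyte RNA or stem cell stage played in the results was not tested. In bulk samples such as these, a change in the kinds of cells and a change in RNA per cell cannot be told apart.

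The promoters of 4 genes carry the comparison of start regions and are shown here, those of Idh2 and Etfb, which kept their calls under all 13 alternative settings, of Hadhb, a called gene of the trifunctional protein, and of Idh3b, an uncalled subunit beside called partners. They are the 250 bases before the start in RefSeq on GRCm38.p6, at chr7:80115351-80115600 on the minus strand for Idh2, chr7:43443822-43444071 on the plus strand for Etfb, chr5:30155003-30155252 on the plus strand for Hadhb and chr2:130284452-130284701 on the minus strand for Idh3b. Capitals mark the CCAAT box and the GC box GGGCGG, read on both strands, so that ATTGG and CCGCCC are their reverse forms.
Idh2: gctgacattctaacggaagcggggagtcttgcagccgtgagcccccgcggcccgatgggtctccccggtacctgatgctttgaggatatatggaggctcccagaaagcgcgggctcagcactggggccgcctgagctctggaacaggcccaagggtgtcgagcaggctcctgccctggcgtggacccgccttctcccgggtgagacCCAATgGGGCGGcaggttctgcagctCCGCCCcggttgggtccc
Etfb: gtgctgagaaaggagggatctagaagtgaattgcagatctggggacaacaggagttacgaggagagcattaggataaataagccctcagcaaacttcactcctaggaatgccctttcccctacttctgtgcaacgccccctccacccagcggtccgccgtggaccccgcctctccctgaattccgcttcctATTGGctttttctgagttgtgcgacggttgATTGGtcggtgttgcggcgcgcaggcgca
Hadhb: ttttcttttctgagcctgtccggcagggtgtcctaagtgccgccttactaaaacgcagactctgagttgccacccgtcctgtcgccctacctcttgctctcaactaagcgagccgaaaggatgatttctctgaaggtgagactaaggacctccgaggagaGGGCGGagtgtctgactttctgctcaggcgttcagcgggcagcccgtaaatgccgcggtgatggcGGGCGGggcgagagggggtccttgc
Idh3b: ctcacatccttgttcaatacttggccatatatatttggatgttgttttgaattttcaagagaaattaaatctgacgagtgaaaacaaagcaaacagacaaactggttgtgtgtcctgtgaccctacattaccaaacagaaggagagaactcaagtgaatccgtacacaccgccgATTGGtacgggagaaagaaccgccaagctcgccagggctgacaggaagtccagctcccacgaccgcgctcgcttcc
The Idh2 promoter held a CCAAT box closely followed by a GC box and a reversed GC box close to the start. The Etfb promoter held a pair of reversed CCAAT boxes, Hadhb a pair of GC boxes, and Idh3b a single reversed CCAAT box. Promoters were matched for 37 of the 41 genes, 11 called and 26 not. The GC box was present for 8 of the 11 called and 19 of the 26 uncalled genes, against 32.7% of the 32851 mouse promoters in the table. Hadhb, called, and Hadha, uncalled, lie head to head with 85 bases between them. Their windows can thus share bases, and the same GC box can count for both. CCAAT was present in 6 of the 11 and 12 of the 26, against 33.8% of all promoters. The nuclear receptor half-site AGGTCA was present in 2 of the 11 and 4 of the 26 (14.0% of all), and its extended form AAGGTCA, which contains it, in 0 and 1 (4.08% of all). CCGGAAG, the letters bound by ETS factors, was present in 1 and 3 (6.91% of all), and GCGCATGC, bound by nuclear respiratory factor, in 2 and 3 (2.26% of all). The members were counted by gene, 34 of the 37 with 1 promoter, and the background by promoter over all genes, not only those tested. These shares are therefore not like for like, and whether they differ was not tested. The matches describe letters in a window and no binding was measured.

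At pyruvate entry, none of the 5 genes passed edgeR's test, while the counts at an unadjusted p below 0.05 were 2 higher and 0 lower, and DESeq2 and limma-voom also called 0. Pdha1 and Pdhb encode the decarboxylase subunits of pyruvate dehydrogenase, Dlat its acetyl-transferring core and Dld the dehydrogenase that it shares with the oxoglutarate complex. Pdha1 measured 160 to 179 CPM in the negative and 159 to 170 CPM in the positive libraries, which overlap. Pdhb measured 161, 165 and 150 CPM in the negative and 173, 191 and 184 CPM in the positive libraries, in the order of replicates 1 to 3 that is kept throughout. All positive values of Pdhb lay above all negative ones, a log2 fold change of 0.20 (SE 0.08, edgeR adjusted p = 0.1), and with the replicate block it passed (edgeR adjusted p = 0.0472). Dld measured 136 CPM in each negative library and 161, 161 and 149 CPM in the positive ones. These groups did not overlap either, with a log2 fold change of 0.21 (SE 0.07, edgeR adjusted p = 0.0774, and 0.0401 with the block). Dlat ranged from 92.7 to 108 CPM in negative and from 103 to 116 CPM in positive libraries (edgeR adjusted p = 0.356).

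Pcx, pyruvate carboxylase, makes oxaloacetate from pyruvate and so refills the cycle. It measured 22.3, 17.3 and 7.96 CPM in the negative and 27.5, 24.8 and 21.4 CPM in the positive libraries. The groups overlapped, since positive replicate 3 fell below negative replicate 1, yet each positive library exceeded the negative one of its number. Its log2 fold change was 0.63 (SE 0.32, edgeR adjusted p = 0.191), and 0.73 with the block (adjusted p = 0.0338). Lrfn4 overlaps Pcx on the opposite strand and held 17.3% as many reads, and whether strand was used in counting is not given in the sources used here.

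At the citrate and isocitrate steps, 4 of 7 genes rose and 0 fell. Cs, citrate synthase, joins acetyl-CoA to oxaloacetate. It measured 295, 285 and 259 CPM in the negative and 334, 341 and 353 CPM in the positive libraries. Every positive library was above every negative one, and Cs rose 1.23-fold (log2 fold change 0.29, SE 0.07, edgeR adjusted p = 0.0245). Over its 13 alternatives the adjusted p of Cs ran from 0.00792 to 0.0879, and the call was lost without negative replicate 3 or any 1 of the positive libraries and without the composition factor.

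Idh2 is the NADP-dependent isocitrate dehydrogenase of mitochondria and a source of reducing power there. The gene lies on chromosome 7 at 79744594 to 79765140 (GRCm39, minus strand). It measured 393, 423 and 376 CPM in the negative and 488, 574 and 540 CPM in the positive libraries. The groups did not overlap and Idh2 rose 1.34-fold (log2 fold change 0.43, SE 0.08, edgeR adjusted p = 0.00847). Its cytosolic counterpart Idh1 ranged from 68.1 to 75.4 CPM in negative and from 66.7 to 75.9 CPM in positive libraries (edgeR adjusted p = 0.966). Aco1, the cytosolic aconitase that also acts as an iron-responsive RNA-binding protein, ranged from 87.6 to 91.0 CPM in negative and from 75.3 to 90.8 CPM in positive libraries (edgeR adjusted p = 0.406).

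The NAD-dependent isocitrate dehydrogenase of the cycle is built from the products of Idh3a, the catalytic subunit, and of Idh3b and Idh3g. Idh3a (chromosome 9, 54493618 to 54511945, plus strand) measured 218, 227 and 207 CPM in the negative and 281, 289 and 296 CPM in the positive libraries. It rose 1.33-fold with no overlap of the groups (log2 fold change 0.41, SE 0.07, edgeR adjusted p = 0.00508). Idh3g measured 314, 303 and 279 CPM in the negative and 357, 385 and 358 CPM in the positive libraries. It rose 1.23-fold, again without overlap (log2 fold change 0.30, SE 0.07, edgeR adjusted p = 0.0233), and lost its call without negative replicate 3, without any 1 of the positive libraries and without the composition factor (adjusted p up to 0.0746). Idh3b did not pass, at 141, 159 and 141 CPM in the negative and 135, 149 and 140 CPM in the positive libraries (log2 fold change -0.06, SE 0.08, edgeR adjusted p = 0.677). Its span overlaps that of Nop56 on the opposite strand by 5 bases. In all, 15 of the genes share bases with another gene, 13 of them with one on the opposite strand.

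From oxoglutarate to malate, 4 of 6 genes rose and 0 fell. Ogdh and Dlst encode the decarboxylase and the succinyl-transferring core of the oxoglutarate dehydrogenase complex. Ogdh measured 473, 474 and 487 CPM in the negative and 568, 575 and 594 CPM in the positive libraries. Values varied little within each group, and Ogdh rose 1.21-fold (log2 fold change 0.28, SE 0.06, edgeR adjusted p = 0.0139, and 0.0625 without positive replicate 3). Dlst measured 153, 150 and 129 CPM in the negative and 173, 179 and 181 CPM in the positive libraries. It rose 1.24-fold without overlap (log2 fold change 0.31, SE 0.09, edgeR adjusted p = 0.0391). For Dlst the call was lost when any 1 library other than negative replicate 2 was left out and without the composition factor, with adjusted p up to 0.111.

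Succinyl-CoA ligase pairs the shared subunit Suclg1 with Sucla2, which forms ATP, or Suclg2, which forms GTP. Sucla2 measured 102, 98.7 and 96.1 CPM in the negative and 120, 129 and 131 CPM in the positive libraries. It rose 1.28-fold (log2 fold change 0.36, SE 0.08, edgeR adjusted p = 0.0173), and its adjusted p was 0.0563 without positive replicate 2 and 0.0659 without positive replicate 3. Suclg1 ranged from 163 to 202 CPM in negative and from 197 to 219 CPM in positive libraries (edgeR adjusted p = 0.15), and Suclg2 from 191 to 209 and from 204 to 222 CPM (edgeR adjusted p = 0.328). Fh1, fumarase, measured 134, 143 and 122 CPM in the negative and 163, 183 and 172 CPM in the positive libraries. It rose 1.3-fold without overlap (log2 fold change 0.38, SE 0.09, edgeR adjusted p = 0.02). For Fh1 the call was lost without negative replicate 1 or 3 or positive replicate 2 or 3, with adjusted p up to 0.0698.

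**Figure D2:**
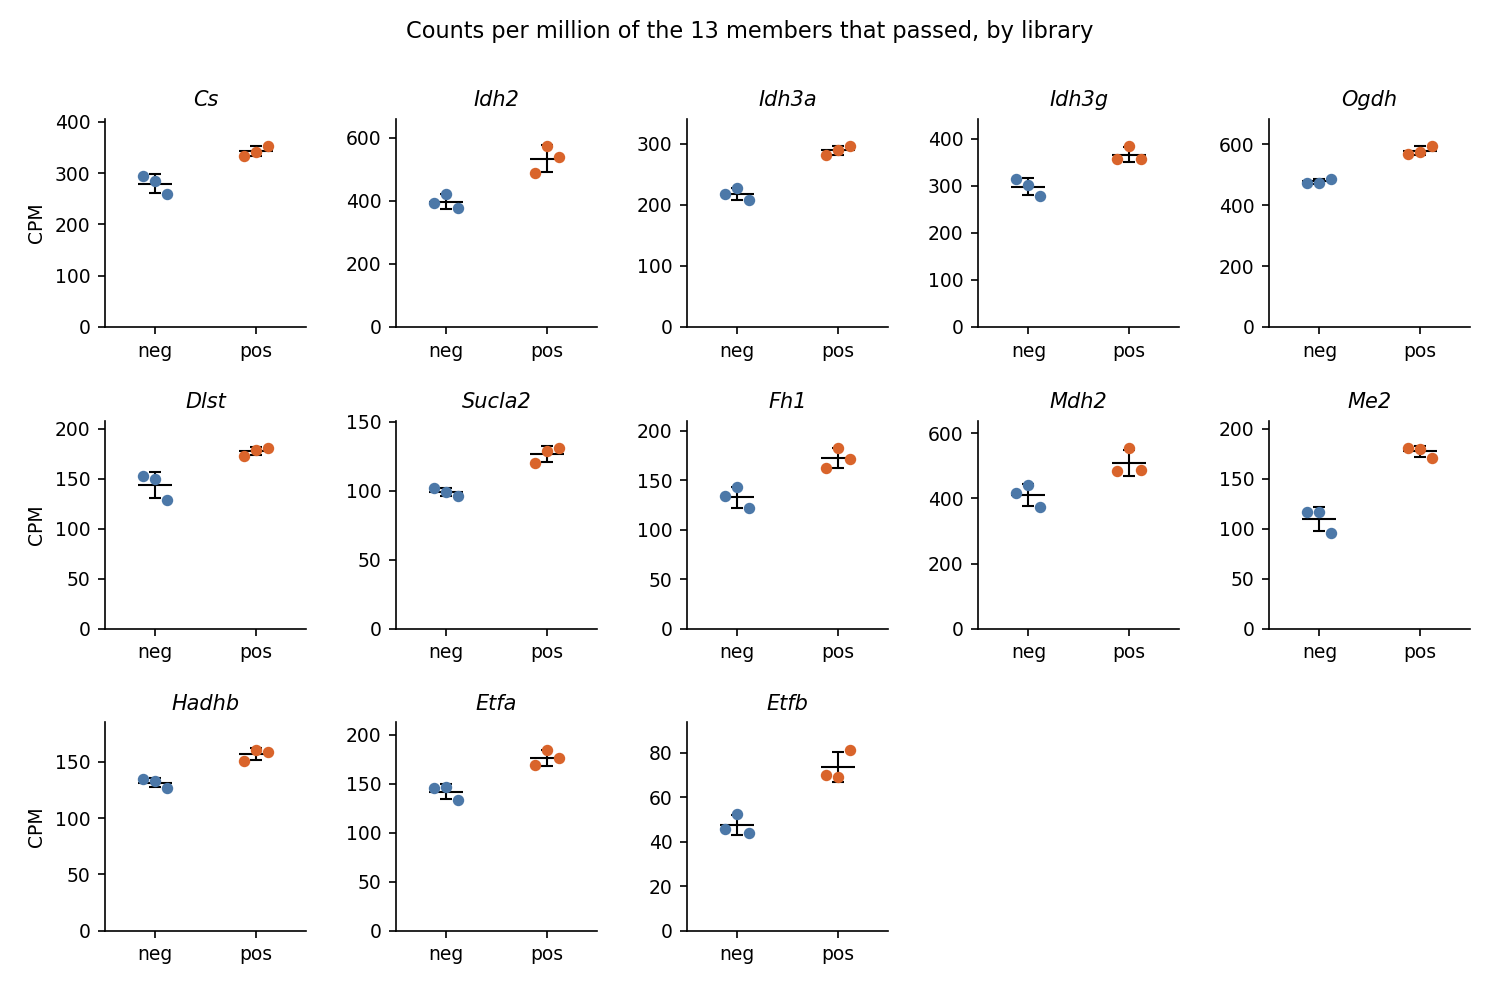
Level in CPM (y axis) of the 13 called genes in each F4/80 negative and F4/80 positive library (x axis), 1 panel per gene, with points for libraries and a line with bars for the mean and SD of 3. In every panel the positive points lie above the negative ones, from 45.6, 52.4 and 43.9 against 70.1, 69.2 and 81.4 CPM for Etfb to 473, 474 and 487 against 568, 575 and 594 CPM for Ogdh.

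At the malate and glutamate steps, 2 of 4 genes rose and 0 fell. Mdh2, the mitochondrial malate dehydrogenase that closes the cycle, measured 417, 441 and 374 CPM in the negative and 483, 555 and 486 CPM in the positive libraries. It rose 1.24-fold without overlap (log2 fold change 0.31, SE 0.09, edgeR adjusted p = 0.0378). For Mdh2 the call was lost when any 1 library other than negative replicate 2 was left out and without the composition factor, with adjusted p up to 0.114. Mdh1, its cytosolic counterpart, ranged from 373 to 422 CPM in negative and from 400 to 460 CPM in positive libraries (edgeR adjusted p = 0.455).

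Me2, the mitochondrial malic enzyme that turns malate into pyruvate, had the largest fold change of the 13 called genes. It measured 117, 117 and 95.5 CPM in the negative and 181, 180 and 171 CPM in the positive libraries. The groups lay far apart, and Me2 rose 1.62-fold (log2 fold change 0.69, SE 0.10). Its edgeR adjusted p was 0.00242 (between 1.7e-08 and 0.0156 over its alternatives). Glud1, glutamate dehydrogenase, which feeds oxoglutarate into the cycle, measured 278, 159 and 242 CPM in the negative and 189, 128 and 196 CPM in the positive libraries. Replicate 2 was low in both groups, the groups overlapped, and each positive library was below the negative one of its number. Glud1 passed as lower when the block was included. Its log2 fold change was -0.40 without it (SE 0.22, edgeR adjusted p = 0.216) and -0.39 with it (edgeR adjusted p = 0.00509).

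In fatty acid oxidation, none of the 3 genes of carnitine entry passed edgeR's test, and all 3 had fold changes below 1. DESeq2 and limma-voom called 0 of them too, and 1 was lower at an unadjusted p below 0.05. Cpt1a attaches carnitine to long-chain acyl groups at the outer membrane and is the step that sets the rate of entry. It measured 329, 403 and 377 CPM in the negative and 310, 307 and 334 CPM in the positive libraries. Positive replicate 3 was above negative replicate 1, so the groups overlapped, and the log2 fold change was -0.22 (SE 0.09, edgeR adjusted p = 0.103). Cpt1a passed as lower with the block (adjusted p = 0.0441), without the composition factor (0.0445) and without negative replicate 1 (0.0488). Cpt2, which removes carnitine inside, ranged from 61.8 to 75.6 CPM in negative and from 60.7 to 68.1 CPM in positive libraries. Slc25a20, the carrier between them, ranged from 70.0 to 87.3 and from 68.5 to 85.8 CPM, and neither gene approached the threshold (edgeR adjusted p = 0.566 for Cpt2 and 0.92 for Slc25a20).

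None of the 4 acyl-CoA dehydrogenases, which carry out the first oxidation on chains of different lengths, passed edgeR's test. DESeq2 and limma-voom called 0 as well, and 1 was higher and 0 lower at an unadjusted p below 0.05. Acadl, for long chains, measured 201 to 217 CPM in the negative and 233 to 242 CPM in the positive libraries without overlap (log2 fold change 0.16, SE 0.07, edgeR adjusted p = 0.124). Acads, for short chains, measured 71.9 to 83.1 and 87.7 to 95.3 CPM, also without overlap (log2 fold change 0.20, SE 0.09, edgeR adjusted p = 0.164). Acadm, for medium chains, and Acadvl, for very long chains, overlapped between the groups, with log2 fold changes of -0.06 and -0.03. Acadvl shares bases with Dvl2 on the opposite strand, which held 76.9% as many reads.

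Of the 5 genes of hydration, oxidation and thiolysis, 1 rose and 0 fell. Hadha and Hadhb encode the alpha and beta subunits of the trifunctional protein, which completes a round of oxidation on long chains. Their genes lie head to head on chromosome 5 of GRCm39, with 85 bases between them. Hadhb (30360246 to 30389591, plus strand) measured 135, 133 and 127 CPM in the negative and 151, 161 and 159 CPM in the positive libraries. It rose 1.19-fold without overlap (log2 fold change 0.25, SE 0.07, edgeR adjusted p = 0.0429). This call was lost when any 1 of the 6 libraries was left out, without the composition factor and without the filter on low counts, with adjusted p up to 0.12.

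The split of reads between Hadhb and its processed copy Hadhb-ps is uncertain. That copy lies on chromosome 2 and measured 49.8, 51.6 and 50.1 CPM in the negative and 61.7, 60.3 and 60.0 CPM in the positive libraries (log2 fold change 0.27, edgeR adjusted p = 0.0542). Both summed to 185, 185 and 177 CPM in the negative and 213, 222 and 219 CPM in the positive libraries, which did not overlap. Hadha measured 122, 137 and 125 CPM in the negative and 142, 150 and 148 CPM in the positive libraries. These groups were apart too, with a log2 fold change of 0.20 (SE 0.08, edgeR adjusted p = 0.115, and 0.0492 with the block). Hadh, Echs1 and Acaa2, which oxidise, hydrate and cleave shorter chains, overlapped between the groups with log2 fold changes of -0.02, 0.14 and 0.13. Paox overlaps Echs1 on the opposite strand and held 28.2% as many reads.

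Eci1, Eci2 and Decr1, which prepare unsaturated chains for oxidation, all overlapped between the groups. Their log2 fold changes ran from -0.03 to 0.09, and 0 passed by edgeR, DESeq2 or limma-voom, or at an unadjusted p below 0.05. Their summed level was 234 to 266 CPM in the negative and 235 to 265 CPM in the positive libraries.

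Electron transfer flavoprotein held the clearest change on the oxidation side, with 2 of 3 genes higher and 0 lower. Etfa and Etfb encode its subunits, and Etfdh the membrane enzyme that passes the electrons to ubiquinone. Etfb (chromosome 7, 43093507 to 43107224, plus strand) measured 45.6, 52.4 and 43.9 CPM in the negative and 70.1, 69.2 and 81.4 CPM in the positive libraries. Its groups lay well apart, and Etfb rose 1.56-fold (log2 fold change 0.64, SE 0.11, edgeR adjusted p = 0.00577, between 2.12e-05 and 0.0325 over its alternatives). Etfa measured 146, 147 and 133 CPM in the negative and 169, 185 and 176 CPM in the positive libraries. It rose 1.25-fold without overlap (log2 fold change 0.32, SE 0.08, edgeR adjusted p = 0.0248). For Etfa the call was lost when any 1 library other than negative replicate 2 was left out and without the composition factor, with adjusted p up to 0.0806. Etfdh ranged from 96.4 to 112 CPM in negative and from 105 to 123 CPM in positive libraries (edgeR adjusted p = 0.406), and 4930579G24Rik, which overlaps it on the opposite strand, held 46.9% as many reads.

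Ppard, a nuclear receptor that switches on fatty acid oxidation genes, was barely expressed. It measured 0.879, 0.838 and 1.85 CPM in the negative and 0.161, 0.334 and 0.587 CPM in the positive libraries, where 3 counts correspond to 0.146 to 0.167 CPM. All positive values were below all negative ones, with a log2 fold change of -1.69 (SE 0.59, edgeR adjusted p = 0.0755, and 0.0418 with the block).

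**Figure D3:**
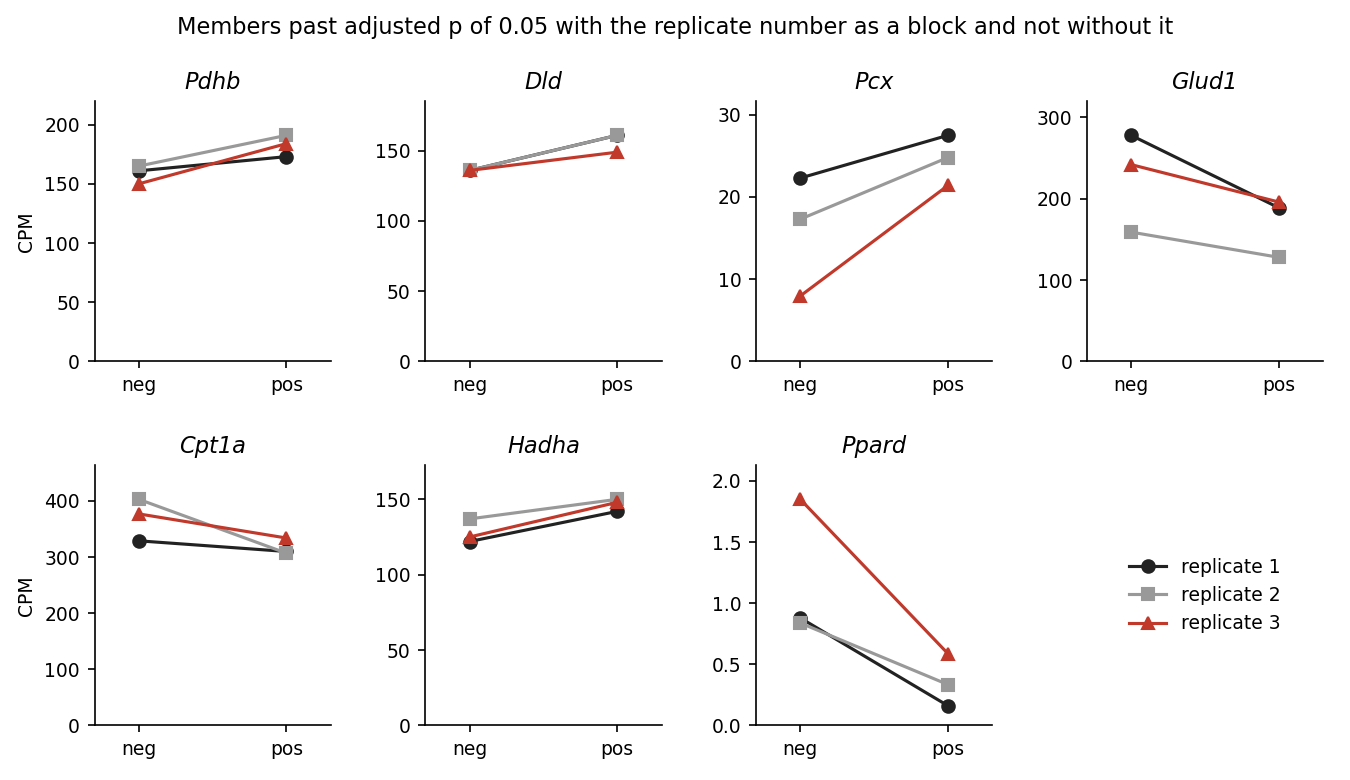
Level in CPM (y axis, from 0) in the F4/80 negative and positive library (x axis) for the 7 genes that passed an adjusted p of 0.05 with the replicate number as a block and not without it, with a line joining libraries of the same number. Pdhb, Dld, Pcx and Hadha slope upward and Glud1, Cpt1a and Ppard downward in all 3 pairs, as in Glud1 from 278, 159 and 242 to 189, 128 and 196 CPM.

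The pathways were compared within each library, on levels scaled to gene length so that genes can be summed. The TCA sum was 1191, 1202 and 1126 CPM per kilobase in the negative and 1322, 1424 and 1367 in the positive libraries. The oxidation sum was 667, 698 and 681 CPM per kilobase in the negative and 716, 766 and 765 in the positive libraries. Both length-scaled sums were higher in every positive library, by 1.17 times for the TCA cycle and 1.10 times for oxidation, comparing the group means. The TCA sum divided by the oxidation sum was 1.79, 1.72 and 1.65 in the negative and 1.84, 1.86 and 1.79 in the positive libraries, a mean of 1.72 ± 0.0656 (SD, n = 3) and 1.83 ± 0.0384 (SD, n = 3). Negative replicate 1 and positive replicate 3 met at 1.79, so the ratio did not clearly part the groups. A ratio within a library does not depend on the scaling of libraries. For the 16 TCA and 18 oxidation genes left without receptors, cytosolic enzymes and refilling enzymes, it was 1.38, 1.35 and 1.26 in the negative and 1.46, 1.5 and 1.43 in the positive libraries, which did not overlap. In plain CPM, the oxidation sums overlapped, at 2158, 2284 and 2247 in the negative and 2236, 2407 and 2385 in the positive libraries (1.05 times). The ratio of plain CPM sums was 2.11, 1.99 and 1.90 in the negative and 2.26, 2.23 and 2.19 in the positive libraries, without overlap. Whether the ratio parts the groups thus depended on the scale and on the genes included. These sums have no test, since their genes were chosen.

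**Figure D4:**
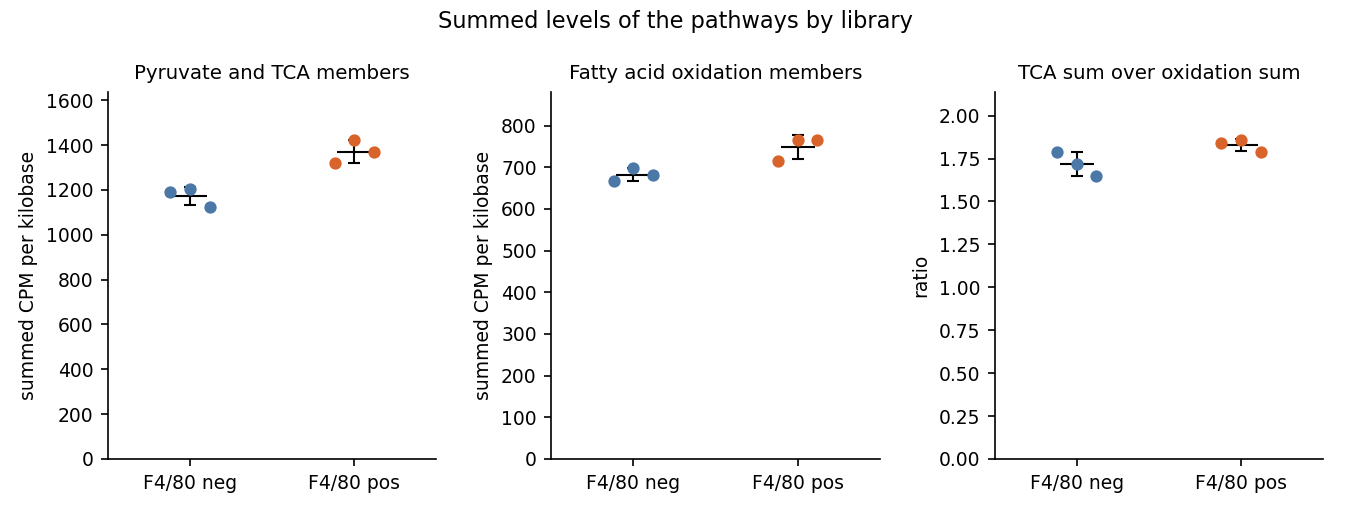
Summed level of the 22 pyruvate and TCA genes and of the 19 fatty acid oxidation genes in CPM per kilobase, and the first sum divided by the second (y axes from 0), in each F4/80 negative and positive library (x axes), with mean and SD of 3. The TCA sum spans 1126 to 1202 in the negative group and 1322 to 1424 in the positive group, and the ratios touch at 1.79.

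By library, groups that did not overlap were found for 12 TCA genes with all positive libraries above and 0 below, and for 6 oxidation genes above and 1 below. Over all tested genes, 2906 (20.1%) lay above and 2966 (20.5%) below in this way. The members were also more abundant than most genes, with a median of 168 CPM for the TCA genes and 107 CPM for the oxidation genes against 27.0 CPM over all genes tested. Scaled to length, Idh2 led with 154 ± 9.22 CPM per kilobase in the negative and 206 ± 16.6 in the positive libraries (SD, n = 3). Mdh1 followed with 149 ± 9.35 and 159 ± 12.2, so that Idh2 and Mdh1 differed by less than their SD in the negative libraries. Mdh2, Idh3g, Acadl, Acaa2 and Ogdh came next, and Pcx and Ppard were lowest in every library.

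Subunits and counterparts of the same step were compared within libraries. For 8 pairs, chosen after their values were seen, the ratio of length-scaled levels was formed in each library. Most of these pairs set a called gene over an uncalled one, so their ratios restate the calls within libraries and are given as a description with no test. In 7 of the 8, all positive libraries lay above all negative ones. Idh3a to Idh3b was 1.04, 0.966 and 0.988 in the negative and 1.40, 1.31 and 1.43 in the positive libraries. Idh2 to Idh1, the mitochondrial over the cytosolic enzyme, was 5.67, 6.65 and 5.33 in the negative and 7.05, 8.09 and 8.67 in the positive libraries. Etfb to Etfdh was 2.99, 3.50 and 2.52 in the negative and 4.29, 3.62 and 4.92 in the positive libraries. In each of these, every positive library had relatively more of the first gene named.

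Smaller differences in the same direction were measured for Idh3g to Idh3b, from a mean of 2.58 to 3.29, and for Sucla2 to Suclg2, from 0.583 to 0.69. Mdh2 to Mdh1 went from a mean of 0.775 to 0.899 and Pdhb to Pdha1 from 0.915 to 1.08. Hadhb to Hadha, the head-to-head pair, was the exception, at 1.46, 1.29 and 1.34 in the negative and 1.40, 1.43 and 1.42 in the positive libraries, which overlapped.

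**Figure D5:**
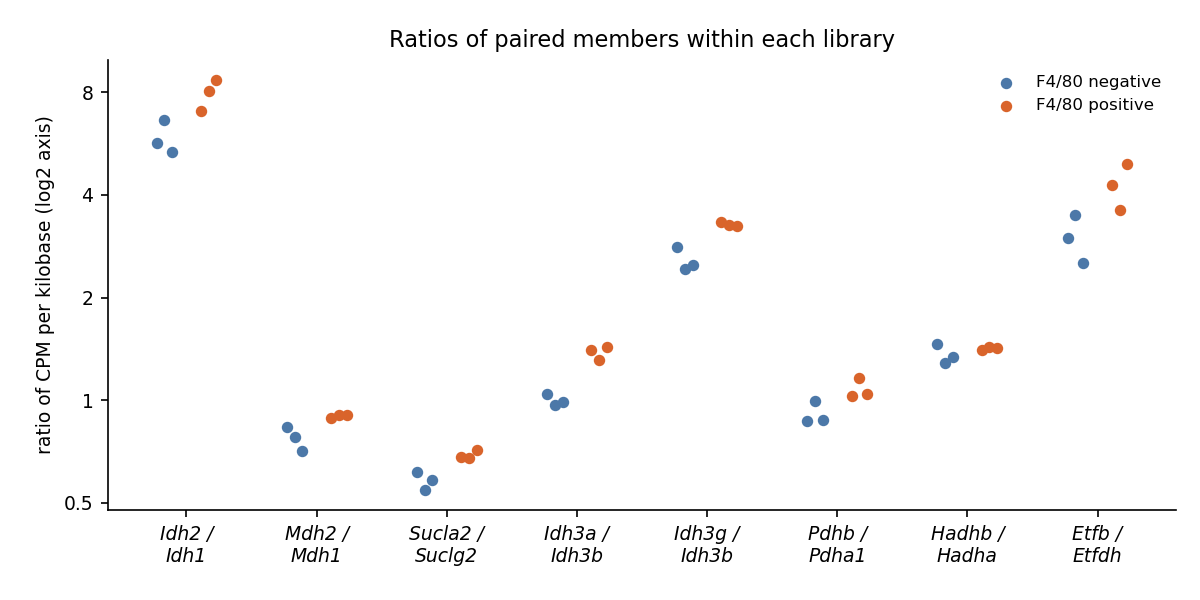
Ratio of length-scaled levels (y axis, log2 scale) for 8 pairs of genes of the same step (x axis), with 1 point for each F4/80 negative and F4/80 positive library. Positive libraries lie above negative ones in 7 pairs, such as Idh3a to Idh3b with 1.40, 1.31 and 1.43 against 1.04, 0.966 and 0.988, and overlap for Hadhb to Hadha.

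Beyond the members, 37 further genes of the TCA cycle and pyruvate metabolism were tested, of which 6 rose and 2 fell, with a median log2 fold change of 0.06. The background rates were 9.65% for a rise and 10.9% for a fall. The share of these 37 genes that rose lay above its background and the share that fell below. Whether either share differed from its background was not tested. Sdhb and Sdhd, subunits of succinate dehydrogenase, rose 1.33-fold and 1.21-fold (edgeR adjusted p = 0.00979 and 0.03). Sdha and Sdhc, the other subunits, did not pass (log2 fold changes of 0.18 and 0.26, edgeR adjusted p = 0.0658 and 0.053), and both passed with the block (adjusted p = 0.0194 and 0.0174). Pdhx, which anchors Dld in the pyruvate complex, rose 1.36-fold and Slc25a10, the dicarboxylate carrier, 1.56-fold (edgeR adjusted p = 0.0176 and 0.0147). The aspartate aminotransferases Got2 of mitochondria and Got1 of the cytosol rose 1.23-fold and 1.40-fold (edgeR adjusted p = 0.0195 and 0.0313). Of these 6, Sdhb alone kept its call with each library left out in turn (adjusted p up to 0.0401), while the others lost it without 2 to 5 of the 6 libraries.

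Pdk4, a kinase that switches off pyruvate dehydrogenase, measured 3.86, 3.30 and 13 CPM in the negative and 2.14, 1.39 and 1.08 CPM in the positive libraries. Me1, the cytosolic malic enzyme, measured 3.71, 3.46 and 13.4 CPM in the negative and 1.87, 1.45 and 1.71 CPM in the positive libraries. In both, negative replicate 3 stood far above the other libraries. Pdk4 fell by 2.13 and Me1 fell by 2.03 on the log2 scale (edgeR adjusted p = 0.0314 and 0.0316), and limma-voom called neither. Without negative replicate 3 the log2 fold changes were -1.21 and -1.09 and neither passed (adjusted p = 0.0873 and 0.0687), and both calls were also lost without any 1 of the positive libraries.

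Of 61 further tested genes of fatty acid uptake, oxidation and its control, 6 rose and 10 fell, with a median log2 fold change of 0.00. Against the 9.65% higher and 10.9% lower over all tested genes, the share that rose lay near the background and the share that fell above it. Whether the share that fell differed from the background was not tested. Of the 18 tested genes among them that were listed under mitochondrial beta-oxidation, 1 rose and 4 fell. That group is broad and also holds enzymes of propionyl-CoA and branched-chain amino acid breakdown. Its counts therefore do not describe the steps of beta-oxidation alone. Of 15 regulators tested, 2 rose and 3 fell. Pparg, a nuclear receptor of lipid storage and of macrophages, measured 1.12, 0.629 and 1.13 CPM in the negative and 7.39, 9.01 and 4.06 CPM in the positive libraries. Ppargc1a, a coactivator of mitochondrial genes, measured 4.05, 5.50 and 8.01 CPM in the negative and 0.857, 0.612 and 1.32 CPM in the positive libraries. Neither gene overlapped between the groups. Pparg rose 7.04-fold (log2 fold change 2.82, SE 0.40, edgeR adjusted p = 0.00252) and Ppargc1a fell by 2.64 on the log2 scale (SE 0.40, adjusted p = 0.00337). The macrophage markers given above rose in the same libraries as Pparg, and positive replicate 3 was lowest in its group for both. The part of macrophage RNA in the Pparg level was not tested.

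Rxra, the partner of the peroxisome proliferator receptors, fell by 1.02 on the log2 scale and Lpin1, a coregulator and phosphatase of lipid synthesis, by 0.68 (edgeR adjusted p = 0.00933 and 0.016). Slc27a1, a fatty acid transporter, fell by 0.79 on the log2 scale, from 55.8, 52.3 and 66.2 CPM to 33.6, 31.9 and 35.2 CPM (edgeR adjusted p = 0.003). Acad10, a member of the acyl-CoA dehydrogenase family, fell by 0.75 (edgeR adjusted p = 0.0184). Nrf1, nuclear respiratory factor, rose 1.32-fold and Abcd2, a peroxisomal transporter of fatty acids, 2.12-fold (edgeR adjusted p = 0.018 and 0.0168). Pparg, Slc27a1, Ppargc1a and Rxra kept their calls with each library left out in turn (adjusted p up to 0.0395). Lpin1 and Nrf1 lost theirs without 2 of the 6 libraries, Abcd2 without 1, positive replicate 2, and Acad10 without 3.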

How the data were processed

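Libraries were made from small numbers of sorted cells with a stranded SMARTer preparation, per the labels' protocols. GRCm39 (mm39), HISAT2 2.0.5 and DESeq2 appear without roles in the submitters' processing notes. Neither the read counter nor its strand setting is given in the sources used here. The authors deposited 1 table of raw counts per gene, a signal that is the count over 1 size factor per library, FPKM values, log2 fold changes, p-values and a gene length, a score in bases used by the authors for FPKM.

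The counts were tested in R 4.3.3 with edgeR 4.0.16 (filterByExpr, minimum count 10 and minimum total 15; TMM factors; quasi-likelihood test without covariates; Benjamini-Hochberg adjustment over 14451 genes). Levels are CPM with TMM factors, divided by the deposited gene length where genes are compared. Alternatives used DESeq2 1.42.0, limma 3.58.1, other scalings and filters, and left out each library. The labels do not tie libraries to animals, and the p-values therefore reflect variation among these libraries that could be technical. Floors cover counting error only, while the standard errors come from the fit and the SDs from the libraries of a group, so both include variation among libraries. Libraries of a group differed by more than sampling noise.

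Both groups carry the replicate numbers 1 to 3 in the labels. In the descriptions, libraries with the same replicate number also share another number across the groups, and these other numbers are not consecutive. What they stand for is not given in the sources used here. Deviations of libraries with the same replicate number correlated by 0.214, 0.284 and 0.256, all above the limit of 0.1. The replicate numbers were therefore taken to pair the libraries. The main test and the fits with 1 library left out did not use this pairing. With the replicate number as a block, 13 TCA genes were higher and 1 lower, and 4 oxidation genes were higher and 2 lower.

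The members and lists were chosen with earlier results of these data known. Values per library are given for each called member and each whose call the block changes. Of each list of other pathway genes, up to 8 called genes by smallest p are named, some by fold change alone. Sequences are from RefSeq. The code was tested on simulated data, with 50 genes changed at each fold. The edgeR step called 0% of them at 1.2-fold, 40% at 1.5-fold and 94% at 2-fold. A smaller share of genes was changed there than was called in the data, so these percentages do not carry over directly. Small changes can go uncalled, and an uncalled gene is not shown to be unchanged. Some genes that the rules name are not reported here.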

Additional observations from a re-analysis of the deposited data

How the results depend on the processing

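With the replicate number as a block, calls over all genes went from 2967 to 4534, over the fatty acid oxidation members from 3 to 6, over the TCA members from 10 to 14 and over the other genes of the pathways from 24 to 37. All 13 called members stayed called under the block, and 7 others gained a call (Pdhb, Dld, Pcx, Glud1, Cpt1a, Hadha and Ppard). Without a composition factor the TCA calls were 6 and the oxidation calls 2. Leaving out 1 library gave 1458 to 3049 calls in either direction over all genes and 3 to 10 for the TCA members. It gave 1 to 2 for the fatty acid oxidation members, 1 of them lower without negative replicate 1, and 6 to 29 for the other pathway genes. The log2 difference of the pathway ratio was 0.089, and it was 0.158 from plain CPM sums and 0.142 without receptors, cytosolic and refilling members, against 0.061 to 0.116 with 1 library left out. The pathway ratio with 1 library left out and the 8 ratios of paired genes were added after seeing the data. Of the members' own values under the alternatives, 462 kept direction and side of the threshold, 43 lost a call, 9 gained one and 18 changed sign, all of them of uncalled genes near 0. With 1 library left out, the log2 fold change spanned -0.06 to 0.00 for Pdha1, -0.04 to 0.05 for Idh1, -0.09 to 0.01 for Idh3b, -0.11 to 0.08 for Slc25a20, -0.08 to 0.02 for Acadvl, -0.09 to 0.07 for Hadh, -0.03 to 0.12 for Eci1 and -0.08 to 0.07 for Eci2. Idh1 was also 0.00 with RLE size factors or DESeq2 and 0.01 without a low-count filter, and Eci1 was -0.05 without a composition factor. Idh2, Idh3a, Me2 and Etfb kept their calls under all 13 alternatives. The causes were not tested. Depth limits Ppard, which lies near the floor of 3 counts in positive replicate 1.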
